A study of Mus musculus with 52 samples.

Results

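The AP-1 factors of the Fos and Jun families are taken here as 8 genes: Fos, Fosb, Fosl1, Fosl2, Jun, Junb, Jund and Atf3. They were chosen by name, as the rows of a table of 55487 genes whose Ensembl identifiers carry these symbols. Of the 8, 7 passed a filter on low counts that left 16668 genes. Fosl1 did not pass it.

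On GRCm38 Fos lies at chr12:85473890-85477273, Fosb at chr7:19302696-19310051, Fosl2 at chr5:32135801-32157842, Jun at chr4:95049034-95052222 and Atf3 at chr1:191170296-191218039. Fosl1 lies at chr19:5447547-5455946, and Junb (chr8:84974484-84978718) and Jund (chr8:70698949-70700616) share chromosome 8. All 8 are protein-coding.

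Total RNA was sequenced from gastrocnemius, the calf muscle, of aged male C57BL/6 mice of 22 to 24 months. There were 13 groups with 4 libraries in each, 52 in all. One group was ambulatory and drank plain water, and it is the only ambulatory group. The other 12 had all gone through hindlimb unloading, in which the hind legs bear no weight. They were sampled at unloading or after 7 or 14 d of reloading, each with plain water, metformin, leucine or metformin and leucine together in the drinking water. Metformin is used to lower blood glucose, and leucine is a branched-chain amino acid known to stimulate protein synthesis. No ambulatory group received a drink other than water, so an effect of a drink without unloading was not measured. The labels do not say that each library is a separate mouse, and p-values measure the spread between the libraries as they are.

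AP-1 is a transcription factor made of pairs of proteins that join through leucine zippers. Jun proteins pair with each other or with Fos proteins, while Fos proteins need a Jun partner to bind DNA well. Fos, Fosb, Jun, Junb and Atf3 are early response genes, whose transcription rises quickly and briefly after growth factors, stretch, contraction or stress and whose messages are short-lived. Jund and Fosl2 are known for steadier levels, and Atf3 is a stress-induced partner of Jun proteins. In muscle, AP-1 genes are known to respond to exercise, loading and injury.

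The upstream sequences of Fos, Fosb and Jun are shown because the RNA of these members differed most clearly between groups. Each is the 250 bases before the RefSeq start of the gene on GRCm38.p6, written 5′ to 3′ along the gene's own strand: Fos at chr12:85473640-85473889 on the plus strand, Fosb at chr7:19310046-19310295 and Jun at chr4:95052223-95052472, both on the minus strand. Capitals mark the motifs whose positions follow the sequences.
Fos: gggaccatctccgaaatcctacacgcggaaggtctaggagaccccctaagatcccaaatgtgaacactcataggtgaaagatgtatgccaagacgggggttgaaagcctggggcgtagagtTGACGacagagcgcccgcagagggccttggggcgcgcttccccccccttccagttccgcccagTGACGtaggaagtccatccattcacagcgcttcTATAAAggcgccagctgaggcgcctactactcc
Fosb: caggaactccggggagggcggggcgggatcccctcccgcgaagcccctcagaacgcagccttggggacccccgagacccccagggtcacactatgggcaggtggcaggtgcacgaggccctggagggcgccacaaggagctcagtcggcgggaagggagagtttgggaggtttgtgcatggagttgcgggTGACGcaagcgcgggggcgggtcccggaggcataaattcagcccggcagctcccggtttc
Jun: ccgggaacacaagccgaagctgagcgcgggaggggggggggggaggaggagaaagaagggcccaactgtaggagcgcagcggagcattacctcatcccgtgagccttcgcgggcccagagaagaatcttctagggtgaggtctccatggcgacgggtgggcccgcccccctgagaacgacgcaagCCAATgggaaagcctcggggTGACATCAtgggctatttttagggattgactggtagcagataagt
Positions count back from the start, with -1 the last base before it. Fos held TATAAA from -33 to -28 and TGACG from -129 to -125 and from -66 to -62. Fosb held TGACG from -60 to -56. Jun held CCAAT from -65 to -61 and TGACATCA from -45 to -38.

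Entries were found for 7 of the 8 members, and both strands were searched over the 250 bases. The bases that follow the RefSeq starts of Junb and Jund were not found in a GENCODE transcript of either gene, so these windows do not lie at a GENCODE start. The classical AP-1 motif TGANTCA was in 0 of the 7 and in 6.75% of 32851 promoters of the same length. TGACGTCA was in 0 of 7 and 1.55% of all promoters, and the CArG box, the motif of serum response factor, in 0 of 7 and 1.47%. TATAAA was in 1 of 7 and 12.4% of all promoters, and CCAAT in 2 of 7 (Jun and Junb) and 33.8%. The shorter TGACG, which overlaps TGACGTCA, and TGACATCA were added after the letters had been read. TGACG was in 4 of 7 (Fos, Fosb, Junb and Atf3) and 17.8% of all promoters, and TGACATCA in 1 of 7 and 2.93%. A match is a description of the letters and not a binding site, and motifs farther upstream than the 250 bases were not searched.

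Levels are given in CPM, counts scaled to the size of the library after correction with its TMM factor. Per kilobase of exon, so that genes can be compared, Jun was the most abundant member with a mean of 31.8 CPM per kb over the 52 libraries. Jund followed with 8.08 CPM per kb and Fos with 3.37 CPM per kb. Fosl2 (1.94), Junb (1.59) and Atf3 (1.21) lay between 1 and 2 CPM per kb on the same scale, and Fosb (0.206) and Fosl1 (0.0833) below 1 CPM per kb. The highest group mean exceeded the lowest 33.1-fold for Fosb, 24.9-fold for Fos, 4.3-fold for Junb, 2.92-fold for Atf3, 2.59-fold for Jun, 1.85-fold for Fosl2 and 1.73-fold for Jund.

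With the 13 group means of a gene in order, a step to the next group was compared with the larger SD of the pair. The step exceeded that SD at 1 of 12 places for Jun, between the unloaded combination group at 125 ± 22.2 CPM (SD, n = 4) and the water group at 14 d of reloading at 90.0 ± 8.27 CPM. For Fosb it did so at 1 of 12 places, between leucine at 7 d of reloading (0.567 ± 0.228 CPM) and the ambulatory group (0.30 ± 0.239 CPM). At every other place, and at all 12 places for Fos, Fosl1, Fosl2, Junb, Jund and Atf3, neighbours in the order did not differ beyond their spread.

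**Figure D1:**
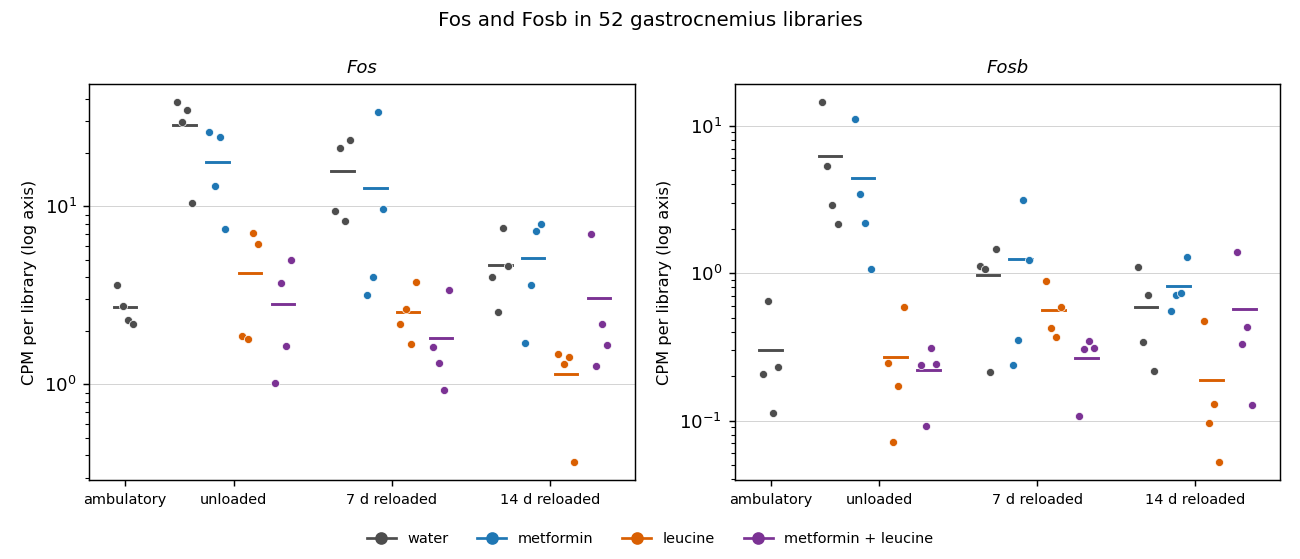
CPM of Fos (left) and Fosb (right) in each library on a log axis, with the groups ordered by time along the horizontal axis and coloured by drink. Points are libraries and short lines are means of 4 libraries. The unloaded water and metformin libraries lie at 7.46 to 38.8 CPM for Fos and 1.07 to 14.6 CPM for Fosb, and the unloaded leucine and combination libraries at 1.01 to 7.05 and 0.0719 to 0.590 CPM.

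Fos, the founding member of the family and the usual partner of Jun, was low in ambulatory muscle and high in unloaded muscle of mice on water. The ambulatory libraries held 3.64, 2.75, 2.30 and 2.19 CPM of Fos. The unloaded water libraries held 38.8, 29.9, 34.8 and 10.5 CPM. Every unloaded water library was above every ambulatory one, and the fourth was the lowest of its group. The difference was 10.4-fold, a log2 fold change of 3.38 ± 0.63 (SE) with an adjusted p of 0.00131 by edgeR's quasi-likelihood test, adjusted over all 16668 genes.

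Fosb, a close relative of Fos that also pairs with Jun proteins, changed more on the fold scale from a far lower level. It stood at 0.208, 0.651, 0.112 and 0.231 CPM in the ambulatory libraries, which rest on 23 counts in all. In the unloaded water libraries it stood at 14.6, 5.37, 2.89 and 2.15 CPM. The groups did not overlap, and 1 unloaded library was far above the other 3. The log2 fold change was 4.32 ± 0.78 (SE), or 20.01-fold (adjusted p = 0.000334, edgeR). It ranged from 3.48 to 5.04 when 1 library was left out, with the lowest value without unloaded water replicate 1, and the call held each time.

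Jun, the main partner of Fos proteins, rose less on the fold scale from the highest level per kilobase. Ambulatory libraries held 104, 75.8, 73.7 and 95.9 CPM of Jun and unloaded water libraries 168, 179.9, 162 and 142 CPM, with no overlap. The log2 fold change was 0.90 ± 0.175 (SE), 1.87-fold (adjusted p = 0.00122, edgeR). A lncRNA on the other strand, Junos, shares 232 exonic bases with Jun, and the strand setting of the counting was not given in the sources used here. Junos averaged 5.70 ± 0.865 CPM in ambulatory and 7.75 ± 0.642 CPM in unloaded water libraries (SD, n = 4).

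Fosl2, a Fos relative that lacks a strong activation domain, rose from 12.1, 15.6, 13.2 and 12.6 CPM in ambulatory libraries to 31.1, 26.2, 21.6 and 19.8 CPM in unloaded water libraries. The groups did not overlap. The log2 fold change was 0.88 ± 0.21 (SE), 1.84-fold (adjusted p = 0.00902, edgeR). This call was lost without unloaded water replicate 1 (log2 fold change 0.75, adjusted p = 0.060). It was also lost without the 12 libraries with the liver transcript Alb over 16 CPM, called liver-transcript libraries here (0.63, 0.369). Leaving these out keeps 2 unloaded water libraries. Jun without those 12 stood at a log2 fold change of 0.80 with an adjusted p of 0.0742.

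Junb, Jund and Atf3 did not pass the test in unloaded water muscle. Junb, a Jun relative that can restrain Jun, had a log2 fold change of 0.89 (95% interval 0.01 to 1.76, adjusted p = 0.355, edgeR). Jund had 0.67 (0.18 to 1.15, adjusted p = 0.147) and did not overlap between the groups, at 9.31 to 10.8 CPM in ambulatory and 12.5 to 19.4 CPM in unloaded water libraries. Jund shares 877 of its 1668 exonic bases with Gm11175 on the other strand, which averaged under 1 CPM in both groups, so its counts are uncertain. Its adjusted p was 0.0249 when 2 libraries of the combination group at 14 d of reloading (replicates 1 and 6), of which replicate 1 stood apart for several members, were left out.

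Atf3 had a log2 fold change of 1.3 (0.10 to 2.50, adjusted p = 0.311), with 1 unloaded water library at 10.2 CPM and the other 3 at 1.52 to 4.24 CPM. Fosl1, which codes for FRA-1, had at most 21 counts in any library and was at 0.122 ± 0.0529 CPM in ambulatory and 0.166 ± 0.0786 CPM in unloaded water libraries. It shares 1163 of its 2033 exonic bases with Ccdc85b on the other strand, so its counts are uncertain.

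In all, 4 of the 7 members tested rose and 0 fell in unloaded water muscle, where 1.95% of all genes tested rose and 2.78% changed in either direction. Between the groups, 5 of 7 members did not overlap, against 13% of all genes. The median log2 fold change of the 7 was 0.90 and that of all genes -0.01.

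The same contrast was then read for each drink. All 4 unloaded groups were compared with the same ambulatory libraries, so these comparisons are not independent of each other. With metformin, Fos stood at 26.3, 13.1, 24.6 and 7.46 CPM and Fosb at 11.1, 3.45, 2.18 and 1.07 CPM, all above the ambulatory libraries. Fos (log2 fold change 2.71, adjusted p = 0.00969), Fosb (3.83, 0.00122), Fosl2 (0.75, 0.0277) and Jun (0.96, 0.000389) rose in the edgeR test, so 4 of 7 members rose where 2.47% of all genes did and 3.62% changed in either direction. The call of Fosl2 was lost without any one of ambulatory replicates 2, 4 and 5 or metformin replicates 1 and 3 (log2 fold change 0.64 to 0.75, adjusted p 0.0664 to 0.150) and with no filter on low counts (0.75, 0.0789). Jun missed the threshold in a fit of the compared groups alone (0.98, 0.0516). Of the 7 members, 4 did not overlap between groups, against 14.2% of all genes.

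With leucine, unloaded muscle held Fos at 1.86, 1.80, 7.05 and 6.12 CPM, of which 2 libraries were below and 2 above the ambulatory range. Fosb was at 0.245, 0.0719, 0.171 and 0.590 CPM, within or below that range. Jun was at 105, 152, 191 and 169 CPM, above every ambulatory library. Jun (log2 fold change 0.82 ± 0.18, adjusted p = 0.00266, edgeR) was the 1 member of 7 that changed, where 3.74% of all genes did. Fos had a log2 fold change of 0.62 (95% interval -0.74 to 1.97) and Fosb of -0.22 (-2.20 to 1.77), and both intervals reach above 1 log2 unit. Fosl2 stood at 20.2, 20.3, 20.8 and 21.1 CPM, also above every ambulatory library, and had an adjusted p of 0.0875 here but 0.00649 without replicates 1 and 6 of the combination group at 14 d. In all, 3 of 7 members did not overlap between groups, against 13.2% of all genes.

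With metformin and leucine together, 0 of 7 members passed the edgeR test, where 2.07% of all genes did. Fos was at 1.01, 3.72, 1.65 and 4.99 CPM and Fosb at 0.238, 0.0923, 0.312 and 0.243 CPM, both overlapping the ambulatory libraries. Jun was at 114, 158, 111 and 115 CPM, above all 4 ambulatory libraries, with a log2 fold change of 0.51 (95% interval 0.16 to 0.87, adjusted p = 0.118). Of the 7 members, 2 did not overlap, against 11.5% of all genes. At an unadjusted p under 0.05, 2 of the 7 members passed (Fosl2 and Jun), and DESeq2 called 0.

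**Figure D2:**
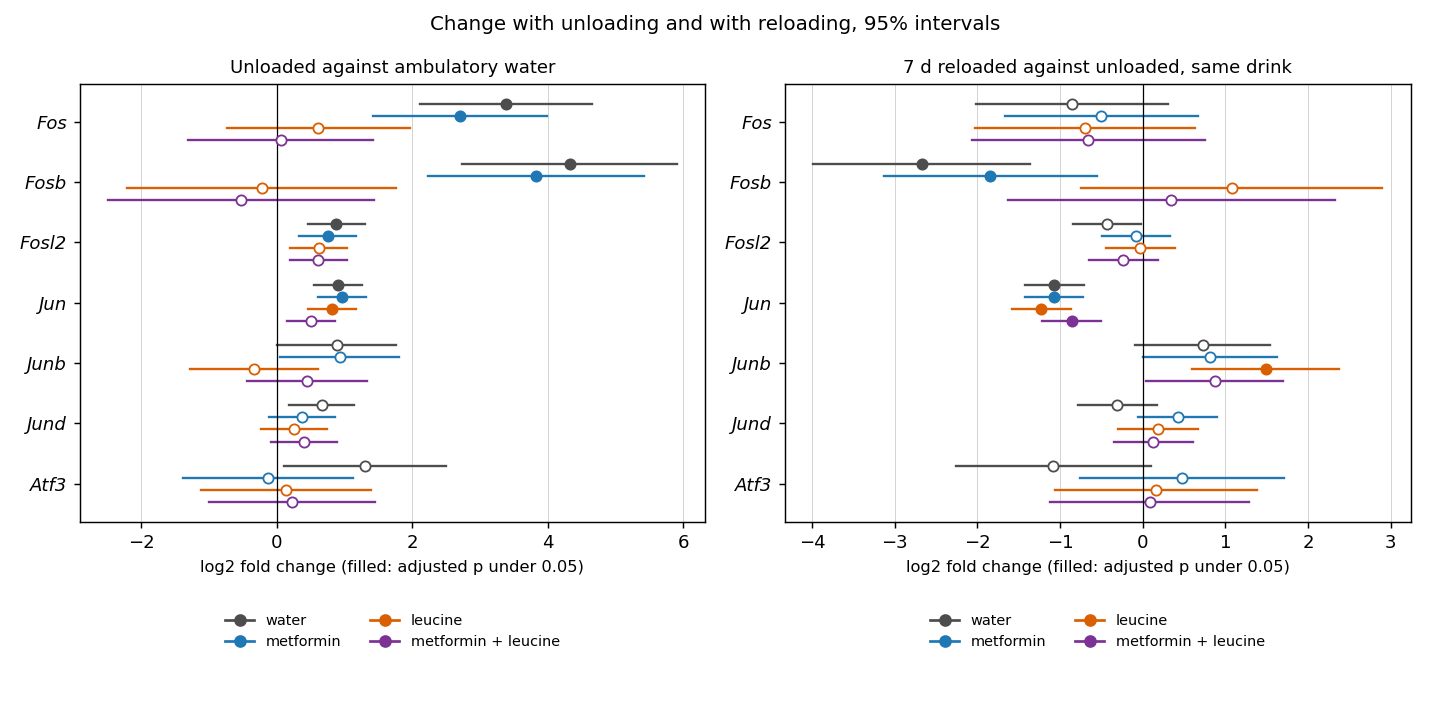
Log2 fold change of the 7 members tested, with 95% intervals, for unloaded against ambulatory libraries (left) and 7 d reloaded against unloaded libraries of the same drink (right). Colours are drinks, and filled points have an adjusted p under 0.05. On the left Fos and Fosb are at 2.71 to 4.32 with water and metformin and at -0.52 to 0.62 with leucine and the combination. On the right Jun is at -1.22 to -0.86 in all 4 drinks.

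The drinks were next compared with water within unloaded muscle. Metformin alone moved 0 of 7 members by edgeR and by DESeq2, with 1 at an unadjusted p under 0.05. Of all genes 0% were called by edgeR, with 647 at an unadjusted p under 0.05 and 14 called by DESeq2. Fos had a log2 fold change of -0.67 (95% interval -1.83 to 0.48) and Fosb of -0.50 (-1.71 to 0.71) between metformin and water. Leucine alone lowered Fosb by 23.3-fold (log2 fold change -4.54 ± 0.84, adjusted p = 0.0142, edgeR), and Fosb was the 1 gene called of all 16668, or 0.006%. Fos was 6.79-fold lower with leucine (log2 fold change -2.76, 95% interval -4.00 to -1.52) and its groups did not overlap, but its adjusted p was 0.246 by edgeR and 0.0346 by DESeq2. Junb also did not overlap (log2 fold change -1.22, adjusted p = 1.00), so 3 of 7 members did not, against 2.85% of all genes.

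The combination lowered Fosb 28.7-fold (log2 fold change -4.84 ± 0.83, adjusted p = 0.00186, edgeR) and Fos 9.95-fold (-3.31 ± 0.62, adjusted p = 0.0223) against water. These were 2 of 8 genes called, or 0.048% of all genes, and 2 of 7 members did not overlap, against 4.72% of all genes. Against metformin alone, the combination lowered Fosb 20.4-fold (log2 fold change -4.35, adjusted p = 0.0252), where 0.15% of all genes changed. Fos was 6.24-fold lower there, with no overlap and an adjusted p of 0.0655. How many of all genes did not overlap there is not given. Against leucine alone 0 of 7 members changed by edgeR or DESeq2 and 0 had an unadjusted p under 0.05, where 0.096% of all genes changed, and Fos had a log2 fold change of -0.55 (95% interval -1.89 to 0.78).

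Several of these calls missed the threshold when 1 library was left out, with folds that stayed large. Fosb under leucine did so without leucine replicates 1, 2 or 3 (log2 fold change -4.51, -4.27 and -4.38) and without water replicate 1, where it was -3.70 (adjusted p 0.0983 to 0.179 in all). Fos under the combination did so without water replicates 1, 2 or 3 or combination replicates 1 or 5 (-3.29 to -3.06, 0.050 to 0.235). Fosb against metformin did so without combination replicates 1, 5 or 6 (-4.62 to -4.40, 0.0525 to 0.112), and it ranged from -4.69 to -3.35 over the fits that left out 1 library. Fosb under the combination against water kept its call in all 8 fits that left out 1 library (-5.14 to -4.00, highest adjusted p 0.0458). Without the liver-transcript libraries all 3 calls against water missed the threshold, at log2 fold changes of -3.84 for Fosb with leucine and -4.06 for Fos and -3.15 for Fosb with the combination (adjusted p 1.00, 0.175 and 0.471).

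Seen side by side, the groups with leucine in the drink differed from those without it. The contrast of both leucine drinks with both other drinks was chosen after these values had been seen. At unloading, Fos ranged from 1.01 to 7.05 CPM (median 2.79) in the 8 libraries with leucine and from 7.46 to 38.8 CPM (median 25.5) in the 8 without it. Fosb ranged from 0.0719 to 0.590 CPM (median 0.241) with leucine and from 1.07 to 14.6 CPM (median 3.17) without it. Neither gene overlapped, which held for 0.096% of all genes. Fos was 6.51-fold lower (log2 fold change -2.70 ± 0.44, adjusted p = 0.00192, edgeR) and Fosb 21.8-fold lower (-4.44 ± 0.59, adjusted p = 8.5e-06), in 8 of 8 libraries each, where 0.168% of all genes changed. Both calls held in all 16 fits that left out 1 library. They were lost in a fit of the compared groups alone (0.116 and 0.0686), with log2 fold changes of -2.71 and -4.45.

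Of the other members, 0 changed in that contrast. Jun had a log2 fold change of -0.27 (95% interval -0.52 to -0.02), Junb of -0.85 (-1.47 to -0.23), Fosl2 of -0.20 (-0.49 to 0.09), Jund of -0.18 (-0.53 to 0.16) and Atf3 of -0.40 (-1.26 to 0.46). For metformin, the matching contrast of both metformin drinks with both other drinks called 0 of 7 members at any of the 3 times by edgeR or DESeq2, with 0 at an unadjusted p under 0.05, where 0.042%, 0% and 0.084% of all genes were called.

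Transcripts of red blood cells moved in part with Fos and Fosb at unloading. The summed CPM of 6 such markers ranged from 2.85 to 6.24 in ambulatory libraries, from 27.6 to 59.9 in unloaded water and from 17 to 179.9 in unloaded metformin libraries. With leucine it ranged from 12.3 to 17.7 and with the combination from 6.33 to 15.1. Both ranges lay above the ambulatory one, while Fos and Fosb in these groups overlapped their ambulatory ranges. Of the 6 markers, 5 rose in unloaded water and 6 in unloaded metformin muscle, where 1.95% and 2.47% of all genes rose. In the leucine contrast 4 fell, where 0.168% of all genes changed. With leucine and with the combination edgeR called 0 of 6, with 2 at an unadjusted p under 0.05 in each and 1 and 0 called by DESeq2. At 14 d they did not move with Fos. Their sum was 9.99 to 65.3 CPM with metformin and 2.69 to 4.60 CPM with water. All 6 were called higher with metformin, where 5.12% of all genes changed. Fos was at 5.15 ± 2.99 and 4.70 ± 2.12 CPM (SD, n = 4) in these groups and was not called. No marker was at 0 in any of these groups, and the part of blood in the results on Fos and Fosb was not tested. In bulk tissue, fewer cells of a type and less RNA per cell cannot be told apart.

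Leukocyte markers, summed over 10, spanned 31.5 to 46 CPM in unloaded water and 16.9 to 36.9 CPM in unloaded leucine libraries, and edgeR and DESeq2 called 0 of the 7 tested in the leucine contrast, with 2 at an unadjusted p under 0.05. Of 8 fibroblast markers, Col1a1 and Col3a1, collagen genes, fell 4.45-fold and 3.14-fold in unloaded water muscle, where 2.78% of all genes changed. The sum of all 8 fibroblast markers was 554 to 799 CPM in ambulatory libraries, a range that held all unloaded water libraries. It was 629 to 684 CPM in unloaded water and 380 to 590 CPM in unloaded leucine libraries, without overlap. The sum of 6 smooth muscle and pericyte markers did not overlap either, at 299 to 403 CPM with water and 405 to 463 CPM with leucine. All 8 markers of skeletal muscle were present in every group. They summed to 68050 to 115600 CPM per library, and edgeR and DESeq2 called 0 of 8 in the 4 unloaded groups, with at most 1 at an unadjusted p under 0.05. A 5.8S ribosomal RNA gene differed between groups, at 7.99 to 13.8 CPM in unloaded water, 14.3 to 32.8 in unloaded leucine and 2.07 to 8.82 in unloaded combination libraries. The part of these in the results was not tested. Alb, a liver transcript, was over 16 CPM in 12 of 52 libraries. Among them were 2 of unloaded water, 1 of unloaded leucine and 2 of the unloaded combination. Without these 12, the leucine contrast at unloading kept both calls. Libraries below that limit were not all free of Alb, with 9.85 CPM in combination replicate 4 at 7 d and 4.71 CPM in ambulatory replicate 3.

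**Figure D3:**
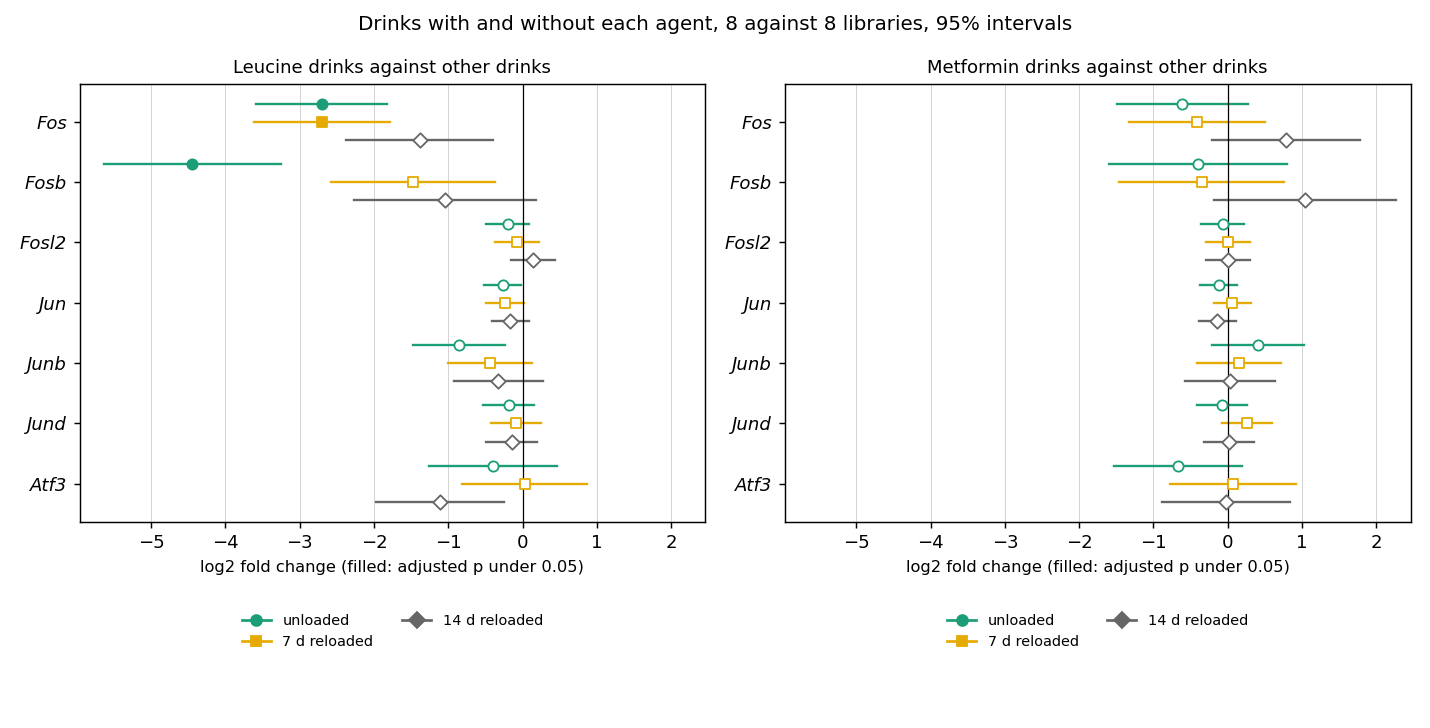
Log2 fold change of the 7 members tested, with 95% intervals, between the 2 drinks that hold an agent and the 2 that do not (8 against 8 libraries), for leucine (left) and metformin (right). Colours and shapes are times, and filled points have an adjusted p under 0.05. With leucine, Fos is at -2.70 at unloading and at 7 d and Fosb at -4.44 at unloading, and 0 points are filled for metformin.

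After 7 d of reloading, when the hind legs bore weight again, Jun had fallen in every drink. With water it stood at 85.0, 62.4, 70.0 and 93.4 CPM, below every unloaded water library. The log2 fold change against unloading was -1.07 ± 0.17 (SE; adjusted p = 8.23e-05, edgeR). It was -1.08 (2.99e-05) with metformin, -1.22 (2.78e-06) with leucine and -0.86 (0.00168) with the combination, and in each drink the groups did not overlap. The share of all genes without overlap is not given for 7 d against unloading, so the lack of overlap is a description only. Reloaded libraries of the 4 drinks spanned 53.5 to 93.4 CPM, against 73.7 to 104 CPM in ambulatory ones. The share of all genes that changed was 4.88%, 29.6%, 28.6% and 5.91% in the 4 drinks, in the same order, and 2, 2, 2 and 1 of 7 members changed. Averaged over the drinks, a comparison added after values were seen, Jun fell by 1.06 on the log2 scale (adjusted p = 2.83e-13), where 52.7% of all genes changed. With the combination the call was lost without liver-transcript libraries (-0.74, adjusted p = 0.105).

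Other measures moved over the same step. The 5.8S ribosomal RNA gene went from 14.3 to 32.8 CPM in unloaded leucine libraries to 0.533 to 1.14 CPM at 7 d, and from 10.03 to 12.3 to 0.379 to 1.63 CPM with metformin. The share of counts from mitochondrial genes went from 14.4 to 24.1% to 5.88 to 9.42% with leucine and from 13.1 to 17.1% to 5.53 to 9.22% with metformin. With water it was 12.6 to 17.96% and 13.2 to 15.4%. Averaged over the drinks, 7 of 8 fibroblast markers rose (Col3a1 4.06-fold), 5 of 7 leukocyte markers rose and 5 of 6 red blood cell markers fell (Hbb-bs 3.41-fold). Of all genes 52.7% changed in that comparison, in either direction. The part of these in the results at 7 d was not tested.

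Fosb fell with water, from the unloaded values above to 1.12, 1.07, 0.213 and 1.46 CPM, without overlap (log2 fold change -2.68 ± 0.65, adjusted p = 0.0104, edgeR). With metformin it fell to 0.24, 0.354, 3.14 and 1.22 CPM, with overlap (-1.85 ± 0.65, adjusted p = 0.0275). Without unloaded water replicate 1 the change with water was -1.84 (adjusted p = 0.0943). The change with metformin ranged from -2.86 to -0.86 when 1 library was left out, with the smallest value without unloaded replicate 1 (0.336). It also missed the threshold without reloaded replicates 1, 2 or 4 (0.0569 to 0.087) and with no filter on low counts (0.077). Without liver-transcript libraries the changes were -1.37 with water and -1.06 with metformin (adjusted p 0.347 and 0.258, edgeR). Both calls were also lost in a fit of the compared groups alone (0.0698 and 0.172). With leucine and the combination, where Fosb was already low, the log2 fold changes were 1.08 (95% interval -0.74 to 2.90) and 0.35 (-1.63 to 2.32).

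Junb went the other way. With leucine it rose from 1.47, 1.51, 2.39 and 0.738 CPM at unloading to 5.07, 2.39, 4.19 and 5.74 CPM at 7 d (log2 fold change 1.49 ± 0.44, adjusted p = 0.0105, edgeR), and the highest unloaded and the lowest reloaded library were both at 2.39 CPM. In the other 3 drinks its log2 fold changes were 0.73 to 0.87 and did not pass. With metformin it passed without liver-transcript libraries (1.37, adjusted p = 0.0132). Averaged over the 4 drinks Junb rose by 0.98 ± 0.21 from unloading to 7 d (adjusted p = 0.000129) and fell by 0.83 from 7 d to 14 d (adjusted p = 0.00599), where 52.7% and 13.5% of all genes changed. The call with leucine was lost without unloaded leucine replicate 5 (1.28, adjusted p = 0.0537) and without liver-transcript libraries (1.35, 0.0916). Junb shares 173 exonic bases with Prdx2 on the other strand, so its counts are uncertain. Prdx2 averaged 29.6 ± 3.42 CPM in unloaded leucine and 33.4 ± 7.14 CPM in 7 d leucine libraries (SD, n = 4), and its part in the result on Junb was not tested.

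Fos stayed high at 7 d with water, at 9.44, 21.4, 8.29 and 23.7 CPM. All 4 libraries were above the ambulatory ones (log2 fold change 2.52 ± 0.63, 5.75-fold). The adjusted p was 0.399 by edgeR, which called 0 genes (0%) in this comparison, with 1341 at an unadjusted p under 0.05. DESeq2 called 20 genes, and Fos had 0.0441 there. Of the 7 members, 4 had an unadjusted p under 0.05 and 2 did not overlap between these groups, against 10.8% of all genes. The change of Fos from unloading to 7 d was -0.86 with water (95% interval -2.01 to 0.30) and did not pass in any drink.

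The drinks were also compared with water at 7 d. Fos with metformin was at 3.16, 4.00, 33.8 and 9.66 CPM, with leucine at 2.17, 2.65, 1.68 and 3.74 CPM and with the combination at 1.61, 1.32, 0.936 and 3.40 CPM. Against water, Fos had a log2 fold change of -2.61 with leucine (adjusted p = 0.170, edgeR) and of -3.12 with the combination (0.175), neither overlapping the water libraries. The share of all genes without overlap is not given for either comparison. In both comparisons 0 of 7 members passed by edgeR, where 0.078% and 0.006% of all genes did, with 1 and 2 members at an unadjusted p under 0.05. DESeq2 called Fos in both (adjusted p = 0.0133 and 0.000963). With metformin 0 of 7 passed by edgeR or DESeq2, with 0 at an unadjusted p under 0.05, where 0.138% of all genes did. The combination against metformin or leucine alone at 7 d changed 0 of 7 members by edgeR or DESeq2 (2 and 0 at an unadjusted p under 0.05), where 0% of all genes changed. In the contrast of leucine drinks with other drinks at 7 d, Fos was 6.51-fold lower (log2 fold change -2.70 ± 0.45, adjusted p = 0.0125), the 1 member of 3 genes called, or 0.018%. That call was lost without metformin replicate 3 or combination replicates 1 or 3 (0.0551 to 0.0626).

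At 14 d of reloading, the water libraries held Fos at 4.03, 2.54, 7.59 and 4.64 CPM, and 0 of 7 members differed from the ambulatory group by edgeR or DESeq2 (2 at an unadjusted p under 0.05), where 0.174% of all genes did. Against water at 7 d, 0 of 7 members differed by edgeR or DESeq2 (1 at an unadjusted p under 0.05), where 0.036% of all genes did. Fos with leucine stood at 1.48, 1.31, 1.42 and 0.365 CPM, below every water library (log2 fold change -2.03 ± 0.74, adjusted p = 0.160). Jund with leucine was also below water without overlap (-0.70, adjusted p = 0.144), so 2 of 7 members did not overlap, against 10.1% of all genes. Against water at 14 d, edgeR and DESeq2 called 0 of 7 members with any drink (1 with metformin, 3 with leucine and 0 with the combination at an unadjusted p under 0.05), where 5.12% (metformin), 0.294% (leucine) and 0.714% (combination) of all genes were called. The contrast of leucine drinks with other drinks called 0 of 7 members there by edgeR or DESeq2 (2 at an unadjusted p under 0.05 and 0.03% of all genes called), with Fos at -1.39 (95% interval -2.38 to -0.40). The combination against metformin or leucine alone changed 0 of 7 members by edgeR or DESeq2 (0 and 1 at an unadjusted p under 0.05), where 0.024% and 0% of all genes changed.

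Whether a drink acted differently at different times was tested directly. The effect of the combination on Fosb was stronger at unloading than at 14 d by -4.84 ± 1.13 on the log2 scale (adjusted p = 0.0181, edgeR), 1 of 7 members where 0.96% of all genes differed. The adjusted p was 0.0576 without unloaded water replicate 1, 0.0581 with no filter on low counts and 0.0923 in the compared groups alone. Without liver-transcript libraries the difference was -2.855 (adjusted p = 0.272). For the leucine drinks against the other drinks, the effects on Fos at unloading and at 7 d differed by 0.001 on the log2 scale (95% interval -1.27 to 1.27). That on Fosb was stronger by -2.97 (-4.60 to -1.34), with an adjusted p of 0.626. By edgeR 0 of 7 members passed in that comparison of times and in the one with 14 d, where 0% and 0.012% of all genes did, with 1 member each at an unadjusted p under 0.05. DESeq2 called 0 and 1. For single drinks against water, the other 5 comparisons of unloading with a reloading time called 0 of 7 members by edgeR or DESeq2, with at most 1 at an unadjusted p under 0.05. Of all genes, 0.03% and 0.024% were called there for metformin at 7 and 14 d, 0.066% and 0.006% for leucine and 0.012% for the combination at 7 d. The metformin-by-leucine term was called for 0 of 7 members at any time by edgeR, where 0%, 0.102% and 3% of all genes were. At 14 d 1 member, Jund, had an unadjusted p under 0.05 and was called by DESeq2 (adjusted p = 0.0335).

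**Figure D4:**
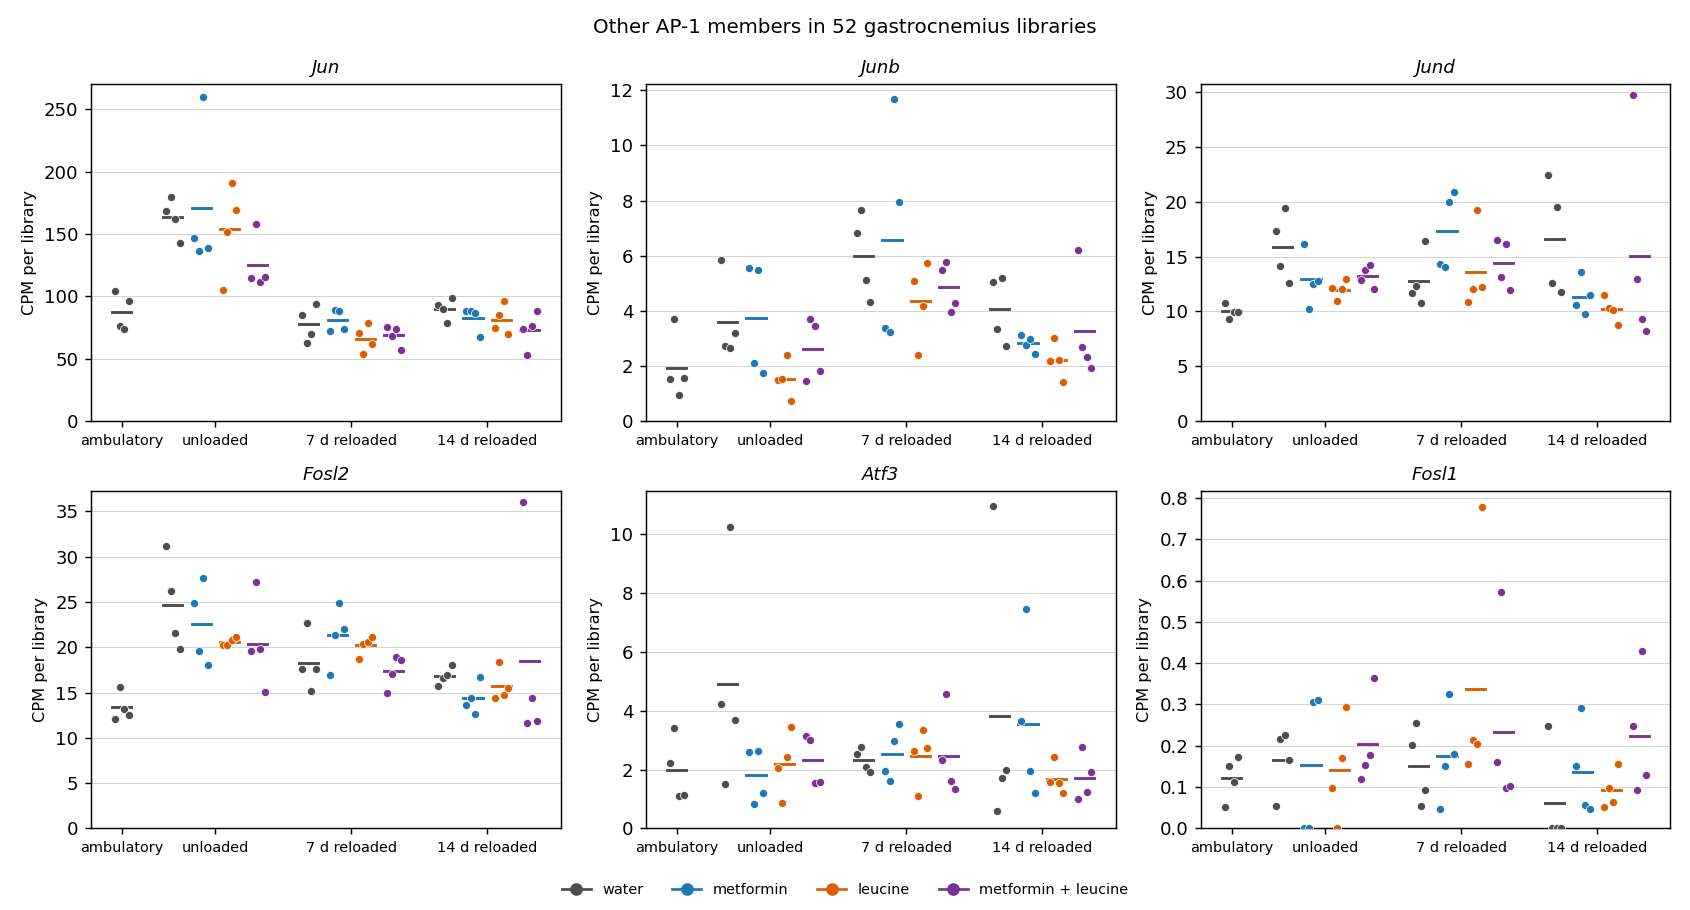
CPM of the other 6 members in each library on linear axes that start at 0, with groups by time and drink as coloured points and means of 4 libraries as short lines. Jun lies at 105 to 260.2 CPM in unloaded libraries and at 53.0 to 104 CPM in all others. Fosl1 is at 0 to 0.777 CPM, and 1 combination library at 14 d stands above the rest in Fosl2 (36 CPM) and Jund (29.7 CPM).

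Of 26 early response genes outside AP-1, 12 rose and 0 fell in unloaded water muscle (median log2 fold change 1.09). With metformin 9 rose (0.92), with leucine 8 (0.70) and with the combination 1 (0.58). Of all genes 1.95%, 2.47%, 2.54% and 1.25% rose in these 4 comparisons, and the median of all genes lay between -0.01 and 0.01. The count with water was 4 without liver-transcript libraries, where the count over all genes, in either direction, went from 464 to 123. That with the combination ranged from 0 to 5 over the other settings. Over all genes it was 345 with the combination, and 68 to 682 in the other settings with all or most libraries kept. Klf6, a zinc finger factor, rose in water (81.4 ± 6.39 against 36.3 ± 3.18 CPM), metformin and leucine (log2 fold changes 1.17, 1.09 and 1.11). Per1, a clock gene, rose with water (1.43) and the combination (1.04). Maff, a small Maf protein that is also on the list of partners, rose 3.94-fold with leucine (adjusted p = 0.00196, edgeR). Ccn1, a matrix protein gene induced by serum and stretch, rose with metformin (1.23). Only the 2 rising genes with the smallest p are named per comparison, so a gene not named for a drink may have risen there too. Over the unloaded libraries of all drinks, Ccn1 was at 42.9 ± 13 CPM, against 23.7 ± 4.25 CPM in ambulatory ones (SD).

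In the leucine contrast at unloading, Egr1 was the 1 of 26 early response genes that changed, where 0.168% of all genes did. Egr1, a zinc finger factor induced with Fos, was at 6.86 ± 2.50 CPM in the 8 libraries with leucine and 27.7 ± 9.33 CPM in the 8 without it (log2 fold change -2.02 ± 0.30, adjusted p = 0.000224). It was also lower with the combination than with water (-2.21, adjusted p = 0.0179) and than with metformin (-2.15, 0.0332).

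Some genes in other lists of the pathway changed as well. Of 14 partners with a leucine zipper that were tested, 4 rose with water, 1 with metformin, 5 with leucine and 2 with the combination, and 0 fell, where 1.95%, 2.47%, 2.54% and 1.25% of all genes rose. Without liver-transcript libraries the counts with water and the combination were 1 and 0. Nfil3, a repressor of that class, rose in all 4 (2.64-fold to 4.22-fold). Of 26 kinases and factors upstream of AP-1, the same pair changed in each unloaded group, where 2.07% to 3.74% of all genes changed in either direction. The count was 0 with the combination without liver-transcript libraries and as low as 0 with metformin when 1 library was left out. Map2k3 rose 1.41-fold to 1.68-fold and Map2k6 fell by 0.63 to 0.90 on the log2 scale. Both code for kinases that activate p38.

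Of 15 feedback inhibitors tested, Zfp36, which speeds the decay of early messages, rose with water (4.82-fold), metformin (3.42-fold) and leucine (3.44-fold). Dusp1, a phosphatase of MAP kinases, rose with water (2.49-fold). Dusp10, another such phosphatase, fell in the same 3 groups (log2 fold changes -1.24, -1.35 and -1.28), and with the combination edgeR and DESeq2 called 0 of 15, with 0 at an unadjusted p under 0.05. Of 25 genes known as AP-1 targets that were tested, 2 rose with water (among them Hbegf, a growth factor gene, 1.91-fold), 2 with metformin (Lox and Hmox1), 1 with leucine (Hbegf 2.18-fold) and 1 with the combination (Hbegf 1.95-fold), where Met fell. Of all genes 1.95%, 2.47%, 2.54% and 1.25% rose. The counts of targets with water, metformin and the combination each went to 0 when some single library was left out, and that with water also to 0 with the replicate block. The median log2 fold changes of the targets lay between -0.18 and 0.10.

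The genes most alike in pattern were ranked by Pearson's r of log2 CPM over the 52 libraries, among 11283 genes. The libraries share scaling and group structure, so r is given as a description, with r of the deviations from group means beside it. Fos was most like Dusp1 (0.82 and 0.75 within groups), Egr1 (0.73 and 0.67) and Btg2 (0.73 and 0.52). Fosb was most like Egr1 (0.79 and 0.62), Dusp1 (0.69 and 0.60) and Zfp36 (0.67 and 0.60). Fosl2 was most like Jade2 (0.77 and 0.70), Rhob (0.75 and 0.64) and Zfp36 (0.74 and 0.77). Jun was most like Tsc22d3 (0.93 and 0.74), Trim63 (0.93 and 0.78) and Lrrc58 (0.93 and 0.67), with none of the genes named for Fos or Fosb among its first 3. Tsc22d3 is known as a glucocorticoid-induced gene and Trim63 as a muscle ubiquitin ligase of wasting.

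The remaining members had other neighbours. Atf3 was most like Xirp1 (0.78 and 0.78 within groups), Rcan1 (0.68 and 0.75) and Tnfrsf12a (0.57 and 0.62). Of these Xirp1 codes for a muscle repair protein and Rcan1 for a calcineurin regulator. Junb was most like Ftl1, Ifi35 and Drg2 (each 0.72, and 0.62, 0.59 and 0.61 within groups). Jund was most like Aqp1, Slc35e4 and Fbxw8 (0.71 to 0.73, and 0.79, 0.68 and 0.62 within groups). Among the members themselves Fos and Fosb had an r of 0.82 (0.61 within groups), Fos and Jun of 0.47 (0.24) and Fosb and Jun of 0.36 (-0.05 within groups).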

How the data were processed

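Total RNA was measured in 52 libraries. The labels give 13 groups of 4, named here by time (AMB ambulatory, HU unloaded, RL7 and RL14 for 7 and 14 d of reloading) and drink (W water, M metformin, L leucine, ML both), so that HU_W 1 is replicate 1 of unloaded water. The authors deposited 1 table of raw counts, with a row for each Ensembl gene. The submitters' processing notes name GRCm38, STAR 2.7.3a, featureCounts 1.6.3 and DESeq2 1.30.0. How strand was handled in counting, and which annotation release was used, is not given in the sources used here. The labels' protocols describe stranded libraries with ribosomal RNA depleted. Without the strand setting, reads of genes on opposite strands cannot be told apart.

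Symbols came from GENCODE vM21 (55227 of 55487 identifiers matched) and promoters from RefSeq. Totals ran from 15605044 to 32492548 counts. Genes passed filterByExpr of edgeR 4.0.16 (R 4.3.3) with a minimum count of 10. All libraries entered 1 quasi-likelihood fit, robust and scaled by TMM, with a mean for each of 13 groups, which left 39 residual degrees of freedom. The threshold was an adjusted p of 0.05, by Benjamini-Hochberg over 16668 genes. SEs come from the fitted weights and moderated dispersion, and intervals from these with the residual degrees of freedom, for 1 comparison at a time.

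There were 35 planned comparisons and 10 added after values were seen. The members, lists and tests were chosen with earlier results of these data known. Named genes outside the members are the 2 rising and 2 falling called genes of a list with the smallest p, some of them not reported here, and the 3 most alike to each member. Alternatives were RLE size factors, no filter, a replicate block, DESeq2 1.42.0, the compared groups alone, leaving out each library, and, added later, leaving out the 12 libraries with Alb over 16 CPM or RL14_ML 1 and 6. The steps were tested on simulated data. Replicates were compared for duplicates, and 78 pairs gave a chi-square of at least 7.47 per degree of freedom.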

Additional observations from a re-analysis of the deposited data

Results flagged for a closer look

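In 104 sets of 4 libraries (8 members in 13 groups), 13 held a library far from the other 3 of its group by Dixon's ratio (11 different libraries), and chance gives about 1 in 20 sets. RL14_ML 1 had 7.04 CPM of Fos against 1.27 to 2.20 in the others and 36 CPM of Fosl2 against 11.6 to 14.4. RL14_L 5 had 0.365 CPM of Fos against 1.31 to 1.48. RL7_ML 1 had 0.108 CPM of Fosb against 0.308 to 0.345. Jun stood apart in HU_M 3 at 260.2 CPM (others 136 to 147), in HU_ML 4 at 158 CPM (111 to 115) and in RL14_M 6 at 67.3 CPM (86.5 to 88.1). Junb was at 5.84 CPM in HU_W 1 (2.66 to 3.19), Jund at 19.3 CPM in RL7_L 3 (10.8 to 12.2) and Atf3 at 10.9 CPM in RL14_W 1 (0.587 to 2.00). Fosl1, at a few counts per library, stood apart in RL7_L 5 at 0.777 CPM, in RL7_ML 3 at 0.572 CPM and in RL14_W 1 at 0.249 CPM.

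The effect of the combination on Fosb differed between unloading and 14 d by -4.845 on the log2 scale, by the test of that difference in edgeR (adjusted p = 0.0181). This call held in 4 of 7 other settings and in 15 of 16 fits that left out 1 library.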

How the results depend on the processing

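Counts over all genes moved with the setting. Without liver-transcript libraries HU_W against AMB_W went from 464 of 16668 genes to 123 of 17023. Without RL14_ML 1 and 6, RL14_W against AMB_W went from 29 to 1409 of 17446 and RL14_L against RL14_W from 49 to 1112. With the compared groups alone, the leucine contrast at HU went from 28 to 3 of 14858. There RL7_W against HU_W rose from 813 to 2033 of 14342, while its count of members fell. Counts of called members (of 7) that changed by over 1.5 times with the setting are given next, with the count of the report first. Without the 12 liver-transcript libraries, HU_W against AMB_W went from 4 to 2, RL7_W against HU_W from 2 to 1, RL7_L against HU_L from 2 to 1, RL7_ML against HU_ML from 1 to 0, HU_L against HU_W from 1 to 0, HU_ML against HU_W from 2 to 0, the combination's effect at HU minus RL14 from 1 to 0, and RL7_ML against RL7_M from 0 to 1. Without RL14_ML 1 and 6, RL14_W, HU_ML, RL14_M and RL14_L gained 1 (0 to 1; the first 2 against AMB_W, the others against RL14_W), as did RL7_ML against RL7_W, HU_L against AMB_W and HU_ML against HU_M went from 1 to 2, and RL14 against RL7 over drinks from 1 to 3. With the compared groups alone, RL7_W and RL14_W against AMB_W went from 0 to 1, HU_ML against AMB_W from 0 to 2, HU_L against AMB_W from 1 to 2, RL7_ML against RL7_W and RL14_L against RL14_W from 0 to 1, RL7_W against HU_W and RL7_M against HU_M from 2 to 1, and HU_L against HU_W, HU_ML against HU_M and the HU minus RL14 term from 1 to 0. HU_ML against HU_W and the leucine contrast at HU went there from 2 to 0 and that at RL7 from 1 to 0. With no filter, RL7_M against HU_M and HU_ML against HU_W went from 2 to 1, and HU_L against HU_W, HU_ML against HU_M and the HU minus RL14 term from 1 to 0. With DESeq2, RL7_W against AMB_W, RL7_L and RL7_ML against RL7_W, the metformin-by-leucine term at RL14 and the leucine contrast at HU minus RL14 went from 0 to 1, and HU_L against HU_W, HU_ML against HU_M and RL14 against RL7 over drinks from 1 to 2.

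When each library was left out in turn, counts ranged from 3 to 4 for HU_W and HU_M against AMB_W, from 0 to 1 for HU_L against HU_W, from 1 to 2 for HU_ML against HU_W, from 0 to 2 for HU_ML against HU_M, from 1 to 2 for RL7_W against HU_W and RL7_L against HU_L, from 1 to 3 for RL7_M against HU_M, from 2 to 4 for RL7 against HU and from 1 to 4 for RL14 against RL7 over drinks. They ranged from 0 to 1 for the HU minus RL14 term, the metformin-by-leucine term at RL14, RL14_ML against RL14_W and the leucine contrast at RL7, and kept their value in the other comparisons. The replicate block took RL7_M against HU_M from 2 to 1, with Fosb at an adjusted p of 0.0797, and changed no other count by over 1.5 times. Same-numbered libraries did not deviate together (median correlation 0.0229 over 219 pairs, lowest -0.612, and 11 of 52 libraries correlated best with their own number), so the numbers were not taken as pairs. No direction reversed for a called member. The cause of these changes was not tested, beyond the fewer libraries or genes that a setting leaves.

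Smaller changes were 4 to 5 for HU_W against AMB_W and 4 to 3 for HU_M against AMB_W, each in 2 settings, and 2 to 3 for RL7 against HU over drinks in 3. Counts in the gene lists moved too. For early response genes outside AP-1 with water, 12 became 4 without liver-transcript libraries and 7 to 12 when 1 library was left out. With metformin 9 ranged from 5 to 12 and with leucine 8 from 6 to 11 over the other settings. With the combination 1 ranged from 0 to 5. Fosb rests on 1 to 13 counts per library in ambulatory and leucine-treated unloaded muscle, so its folds are imprecise, and Fosl1 is too low to compare. A p that misses the threshold does not show that groups are alike.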
